A study of Mus musculus with 6 samples.

Results

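The 9 genes described here encode factors of nonsense-mediated mRNA decay (NMD): *Upf1*, *Upf2*, *Upf3a*, *Upf3b*, *Smg1*, *Smg5*, *Smg6*, *Smg8* and *Smg9*. The rule that defines the set lists them by name, but the members were chosen with earlier results of these data known. They were matched from symbol to mouse Ensembl identifier. All 9 were among the 38293 genes of the gene counts, and all 9 were among the 14396 genes with enough reads to be tested. Each was covered by at least 1466 and at most 22373 reads in a library.

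NMD is a translation-dependent pathway that degrades mRNAs on which a ribosome terminates too early, and it also sets the level of many normal mRNAs that carry upstream reading frames, long 3′ untranslated regions (UTRs) or introns after the stop codon. The kinase SMG1, held in check by SMG8 and SMG9, phosphorylates the helicase UPF1, which is linked by UPF2 and UPF3 proteins to the exon junction complex, and phosphorylated UPF1 recruits the endonuclease SMG6 or the adaptor SMG5. The mRNAs of several NMD factors are known to be degraded by NMD themselves, so that the pathway adjusts its own factors.

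RNA was sequenced from 3 wt embryos and 3 hnRNP L deficient embryos of strain C57BL/6 at E14.5, one library per embryo. In the study's mice floxed *Hnrnpl* alleles are deleted by Cre under the Vav promoter, which is active in hematopoietic cells, and the labels call the groups hnRNPL wild-type and hnRNPL Knock-Out without naming a Cre in either. The methods of the study describe sorted Lin-cKit+ FL cells, a mixed fraction of hematopoietic stem cells and progenitors, whereas the labels give fetal liver cells as the source and the embryo as a whole as the tissue. hnRNP L is an RNA-binding protein that regulates splicing and prefers CA-rich RNA. The comparison of the genotypes asked which mRNAs change when it is lost.

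*Hnrnpl* itself, at chr7:28808541-28822266 of GRCm38, stood at 552, 531 and 528 CPM in wt replicates 1 to 3, and the hnRNP L deficient libraries held 242, 288 and 269.5 CPM in the same order, so that the labels fit the counts and a part of the mRNA remained. CPM is the usual measure of reads on a gene relative to all reads on genes in the library, here after normalization for composition. Reads on genes numbered 55952160 to 76157226 per library. *Kit*, which defines the sorted fraction, was at 423 to 656 CPM in wt and 325 to 368 CPM in hnRNP L deficient libraries. The 8 progenitor markers as a whole summed to 646 to 959.8 CPM in wt and 439 to 484 CPM in hnRNP L deficient libraries, with no overlap. The 8 hepatocyte markers summed to 116 to 240.1 and 21.9 to 74.3 CPM, the 6 markers of stroma and endothelium to 16.9 to 46.6 and 7.93 to 8.91 CPM, and the 8 lymphoid markers to 5.85 to 27.7 and 2.10 to 3.27 CPM, with *Dntt* at 0 in all libraries, and these were lower in every hnRNP L deficient library as well. The 10 erythroid markers (2213 to 2379 and 1933 to 2700 CPM) and the 6 megakaryocyte markers (70.7 to 104 and 63.6 to 89.7 CPM) overlapped between the groups. Wt replicate 2 stood apart, with 9353 CPM of 10 granulocyte and monocyte markers against 596 and 1542 CPM in the other wt libraries and 250.4 to 1073 CPM in hnRNP L deficient libraries. The part of these differences in cell makeup in the values of the NMD factors was not tested, and in RNA from a mixed fraction fewer cells of a type and less RNA per cell cannot be told apart.

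Of the 9 NMD factors, *Upf1*, *Smg5*, *Smg8* and *Smg9* rose in hnRNP L deficient cells, *Smg6* fell, and *Upf2*, *Upf3a*, *Upf3b* and *Smg1* did not pass the test (edgeR's quasi-likelihood test, Benjamini-Hochberg adjusted p under 0.05 over all genes tested). Thus 5 of 9 members were called, or 55.6%, where 19.2% of all genes tested were called. Since the members were chosen with earlier results of these data known, these shares are a description and not a test. By direction, 4 members rose against 9.32% of all genes, and 1 member fell against 9.85% of all genes. The median log2 fold change was 0.24 over the 9 members and -0.026 over all genes tested. The changes were small. The largest rise, that of *Smg9*, was 39.4%, while the median size of the log2 fold change over all called genes was 0.656, above that of every member. Over all genes tested the median size was 0.299 and the median SE was 0.157. The SE was below 0.157 for every member but *Smg1* (0.162). The share called among genes of like SE was not tested.

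The promoters of the 5 called members are shown, since these are the members whose mRNA changed. They are from RefSeq on GRCm38.p6, from 250 bases before the RefSeq start up to that start, or less where the annotated gene begins earlier. Capitals mark matches, on either strand, to the letters searched.
Upf1 promoter (chr8:70353280-70353529, minus strand): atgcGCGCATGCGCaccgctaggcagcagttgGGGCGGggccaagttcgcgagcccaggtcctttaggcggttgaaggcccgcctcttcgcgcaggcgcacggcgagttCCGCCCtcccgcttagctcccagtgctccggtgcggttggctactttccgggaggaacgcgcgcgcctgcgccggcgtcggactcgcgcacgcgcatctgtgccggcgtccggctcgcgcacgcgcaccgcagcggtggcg
Smg5 promoter (chr3:88336010-88336259, plus strand): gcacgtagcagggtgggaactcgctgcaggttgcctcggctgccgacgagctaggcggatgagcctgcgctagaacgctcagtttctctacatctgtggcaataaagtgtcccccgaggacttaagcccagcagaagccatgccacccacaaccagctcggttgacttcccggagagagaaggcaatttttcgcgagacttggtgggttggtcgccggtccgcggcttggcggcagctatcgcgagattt
Smg8 promoter (chr11:87086778-87087027, minus strand): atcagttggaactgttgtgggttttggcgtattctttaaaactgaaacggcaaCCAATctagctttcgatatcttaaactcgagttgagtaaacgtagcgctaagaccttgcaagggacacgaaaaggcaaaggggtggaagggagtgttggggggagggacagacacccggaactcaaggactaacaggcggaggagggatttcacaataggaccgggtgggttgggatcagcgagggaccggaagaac
Smg9 promoter (chr7:24399378-24399618, plus strand): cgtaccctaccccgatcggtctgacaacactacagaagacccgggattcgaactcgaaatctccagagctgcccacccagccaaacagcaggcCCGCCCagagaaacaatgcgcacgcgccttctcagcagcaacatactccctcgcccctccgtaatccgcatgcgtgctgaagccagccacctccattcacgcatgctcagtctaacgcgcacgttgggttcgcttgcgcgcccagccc
Smg6 promoter (chr11:74925604-74925822, plus strand): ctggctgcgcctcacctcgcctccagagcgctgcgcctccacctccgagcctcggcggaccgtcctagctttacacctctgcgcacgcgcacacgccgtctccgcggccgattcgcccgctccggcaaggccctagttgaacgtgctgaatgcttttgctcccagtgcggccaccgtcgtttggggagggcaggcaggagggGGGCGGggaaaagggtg

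The letters searched in the 250 bases were the GC box GGGCGG, the CCAAT box with just these letters, the NRF1 motif GCGCATGC, the cAMP response element TGACGTCA, the ETS motif CCGGAAGT, the E-box CACGTG and TATAAA. The GC box occurred in 7 of the 9 NMD factor promoters and in 32.7% of 32851 promoters, and *Smg5* and *Smg8* were the members without it. CCAAT occurred in *Upf3a*, *Upf3b*, *Smg1* and *Smg8*, 4 of the 9, and in 33.8% of all promoters. The NRF1 motif occurred only in *Upf1* among the members, as a pair of overlapping matches that share the capitals at the far end of the sequence shown, and in 2.26% of all promoters. The other 4 motifs were found in none of the members and in 1.55% (TGACGTCA), 2.88% (CCGGAAGT), 6.02% (CACGTG) and 12.4% (TATAAA) of all promoters. The member promoters held 50.8% (*Smg8*) to 72.8% (*Upf1*) G and C and 12 to 41 CpG dinucleotides, beside medians of 52.4% and 6 over all promoters. The promoters of the 4 members that rose shared no motif of those searched: *Upf1* and *Smg9* had the GC box, *Smg8* had CCAAT, and *Smg5* had none, while *Smg6*, which fell, had 2 GC boxes, one of them in the bases nearest to the start that are not shown.

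*Upf1* (chr8:70331525-70353278, minus strand) encodes the RNA helicase on which all branches of NMD depend. Its mRNA was at 251, 217 and 251 CPM in wt libraries and at 326, 303 and 299.7 CPM in hnRNP L deficient libraries, in the order of replicates 1 to 3 as for all genes below. The groups did not overlap, and the gap between them was 48.3 CPM. The means were 239.8 ± 19.9 and 309.6 ± 14.2 CPM (SD, n = 3), a rise of 29.1% (95% confidence interval 12.1% to 48.7%) and a log2 fold change of 0.37 (SE 0.0865, edgeR adjusted p = 0.031). The gene overlaps *Cers1* and *Gdf1* on the other strand. *Cers1* had at most 0.107 CPM in any library, and *Gdf1* had no row of its own in the counts.

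*Upf2* (chr2:5951469-6056703, plus strand), which bridges UPF1 to the UPF3 proteins, was at 88.4, 77.3 and 82.5 CPM in wt and 80.0, 78.1 and 79.9 CPM in hnRNP L deficient libraries. The hnRNP L deficient values lay within the range of the wt values. The log2 fold change was -0.06 (SE 0.0717, edgeR adjusted p = 0.57), with a 95% confidence interval of -0.23 to 0.11, which leaves room for a fall of 14.7% or a rise of 7.80%.

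The paralogs *Upf3a* (chr8:13785615-13799193, plus strand) and *Upf3b* (chrX:37091678-37110322, minus strand) encode the proteins that connect UPF2 to the exon junction complex, UPF3B being the more active form in NMD. *Upf3a* was at 26.4, 26.6 and 27.7 CPM in wt and 26.6, 24.5 and 25.7 CPM in hnRNP L deficient libraries, and the groups overlapped (log2 fold change -0.07, SE 0.0836, 95% confidence interval -0.27 to 0.13, edgeR adjusted p = 0.57). *Upf3b* was at 67.4, 66.6 and 63.2 CPM in wt and 72.7, 78.2 and 81.4 CPM in hnRNP L deficient libraries. Here all hnRNP L deficient libraries were above all wt libraries, by a gap of 5.35 CPM, but the test was not passed (log2 fold change 0.24, SE 0.0717, 95% confidence interval 0.07 to 0.41, edgeR adjusted p = 0.058). DESeq2 (adjusted p = 0.044) and limma-voom with sample weights (adjusted p = 0.015) did call *Upf3b*, and over all 7 alternative settings its adjusted p ranged from 0.015 to 0.14.

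The ratio of the paralogs within a library does not depend on how libraries are scaled. Per kilobase of exon in coding transcripts there were 0.454, 0.463 and 0.508 *Upf3a* reads for each *Upf3b* read in wt replicates 1 to 3 and 0.424, 0.364 and 0.366 in hnRNP L deficient replicates 1 to 3. The ratio was lower in each hnRNP L deficient library than in each wt library. The level of the ratio depends on the length used, and with all annotated exons it was 0.267, 0.273 and 0.299 in wt and 0.250, 0.214 and 0.216 in hnRNP L deficient libraries, while the log2 difference between the groups does not depend on it. On the log2 scale the means were -1.08 ± 0.0865 and -1.38 ± 0.125 (SD, n = 3), a difference of -0.31 or -19.1% (exact two-sided permutation test, p = 0.1, the smallest p that 3 libraries against 3 allow).

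*Smg1* (chr7:118131308-118243670, minus strand) encodes the phosphatidylinositol 3-kinase-like kinase that phosphorylates UPF1. It was at 308, 194 and 275 CPM in wt and 272, 259 and 251 CPM in hnRNP L deficient libraries. Wt replicate 2 was low, the other wt libraries were above all hnRNP L deficient ones, and the wt coefficient of variation, 22.7%, was the widest of the 9 members. The log2 fold change was 0.01 (SE 0.162, edgeR adjusted p = 0.98) with a 95% confidence interval of -0.37 to 0.39, and its sign turned with the settings, from 0.03 without an expression filter to -0.08 with limma-voom. Without wt replicate 2 it was -0.16 (edgeR adjusted p = 0.15). The interval leaves room for a change as large as that of *Upf1*.

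*Smg8* (chr11:87077732-87086774, minus strand) and *Smg9* (chr7:24399619-24422778, plus strand) encode the subunits that bind SMG1 and restrain its kinase activity. *Smg8* was at 47.9, 42.3 and 47.6 CPM in wt and 65.1, 58.7 and 58.5 CPM in hnRNP L deficient libraries, and *Smg9* at 49.4, 42.4 and 53.0 CPM in wt and 66.6, 66.8 and 68.4 CPM in hnRNP L deficient libraries. For both genes the lowest hnRNP L deficient library was above the highest wt library, by 10.6 CPM for *Smg8* and 13.6 CPM for *Smg9*. *Smg8* rose by 32.3% (log2 fold change 0.40, SE 0.0839, 95% confidence interval 0.21 to 0.60, edgeR adjusted p = 0.024). *Smg9* rose by 39.4% (log2 fold change 0.48, SE 0.0936, 95% confidence interval 0.26 to 0.70, edgeR adjusted p = 0.021).

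*Smg5* (chr3:88336260-88362338, plus strand), which encodes an adaptor that binds phosphorylated UPF1 and leads the mRNA to decapping and deadenylation, was at 166, 162 and 176 CPM in wt and 206, 191 and 202 CPM in hnRNP L deficient libraries. The groups did not overlap. The rise of 18.8% was just past the threshold (log2 fold change 0.25, SE 0.0703, 95% confidence interval 0.08 to 0.41, edgeR adjusted p = 0.049) and was called in 4 of 7 alternative settings, over which the adjusted p ranged from 0.027 to 0.10.

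*Smg6* (chr11:74925823-75164448, plus strand) encodes the endonuclease that cuts the target mRNA near the premature stop codon, and it was the only member with lower values throughout. It was at 70.7, 67.6 and 73.5 CPM in wt and 57.9, 57.8 and 56.8 CPM in hnRNP L deficient libraries, with a gap of 9.70 CPM between the groups. It fell by 18.6% (log2 fold change -0.30, SE 0.0650, 95% confidence interval -0.45 to -0.14, edgeR adjusted p = 0.027), and the call was lost without an expression filter (adjusted p = 0.051). *Smg6* overlaps several genes on the other strand, of which the most abundant in the counts was *Srr*, at 5.49, 6.65 and 5.70 CPM in wt and 4.50, 4.22 and 4.74 CPM in hnRNP L deficient libraries. The libraries were made with a strand-specific kit, and whether the counting used the strand is not given in the sources used here.

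**Figure D1:**
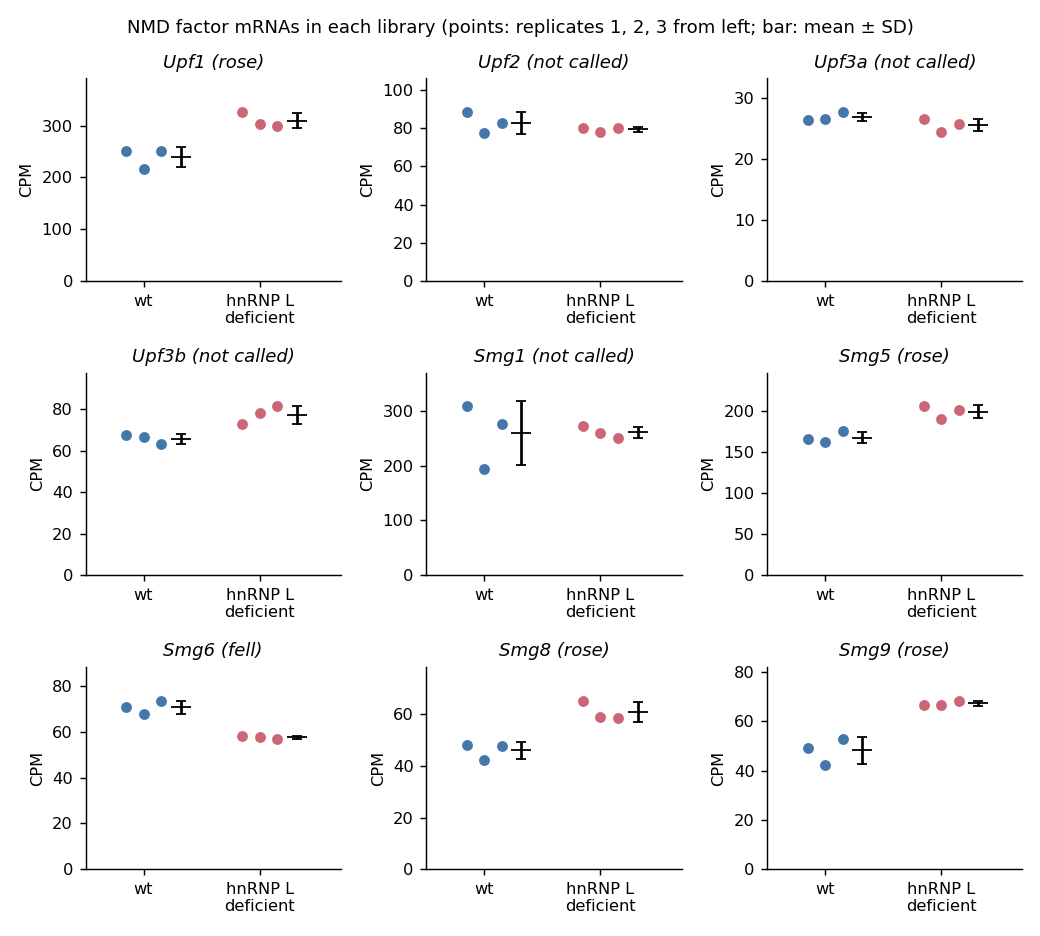
CPM (y axes, from 0) of the 9 NMD factors in each library, with wt in blue, hnRNP L deficient in red, replicates 1 to 3 from left to right and the mean ± SD beside them. The groups lie apart for *Upf1*, *Upf3b*, *Smg5*, *Smg6*, *Smg8* and *Smg9*, with *Smg6* the one that is lower in hnRNP L deficient libraries, and *Smg1* shows the low value of wt replicate 2.

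Across the members, the groups did not overlap for 6 of 9 (66.7%), 5 with hnRNP L deficient above and 1 below, where 45.5% of all genes tested did not overlap, 22.7% in each direction. Which library was lowest or highest in its group was counted for the members only and not for all genes. In the hnRNP L deficient group replicate 1 was the highest for 7 of the 9 members. Wt replicate 2, the library with high granulocyte and monocyte markers, was the lowest wt library for 7 of the 9 members. Without it the same 5 members were called, and their log2 fold changes were 0.30 for *Upf1*, 0.22 for *Smg5*, 0.35 for *Smg8*, 0.39 for *Smg9* and -0.33 for *Smg6* (edgeR adjusted p 0.0099 to 0.039), while *Upf3b* passed the threshold as well (adjusted p = 0.0496). When any one library was left out, the 5 members kept their direction and an edgeR unadjusted p under 0.05 in 6 of 6 fits. These members had been picked by the fit with all libraries, and each of the 6 fits reuses most of those libraries. The share of all genes with such an unadjusted p was not counted, so this is no separate support for the calls. Their adjusted calls were kept in the fits without wt replicate 1 or wt replicate 2 and were all lost in the other 4 fits, in which no more than 0.115% of all genes were called.

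Levels can be compared between genes only per length. In CPM per kilobase of exon in coding transcripts, the order in wt libraries was *Upf1* (51.9 ± 4.31), *Smg5* (37.8 ± 1.66), *Upf3b* (27.6 ± 0.932), *Smg9* (20.2 ± 2.27), *Upf2* and *Smg1* (both 16.0), *Smg8* (14.3), *Upf3a* (13.1) and *Smg6* (12.0), as mean ± SD with n = 3. Neighbours from *Upf1* down to *Upf2*, and *Upf3a* and *Smg6*, had separate library ranges. *Upf2* and *Smg1*, *Smg1* and *Smg8*, and *Smg8* and *Upf3a* overlapped, so that their order does not exceed their spread. With this length all 9 were above the median of all genes tested, 6.97 CPM per kilobase, and the highest was 4.33-fold above the lowest. In hnRNP L deficient libraries *Smg8* (18.9) moved from the seventh place to the fifth, ahead of *Smg1* (16.1) and *Upf2* (15.3), and the first 4 and last 2 places were taken by the same genes as in wt. These levels depend on the length used. With all annotated exons in place of those of coding transcripts, *Upf3a* fell to the last place at 4.59 CPM per kilobase in wt. *Upf1* stayed at 51.9, so the spread of the members was wider. The median over all genes was not computed with that length.

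**Figure D2:**
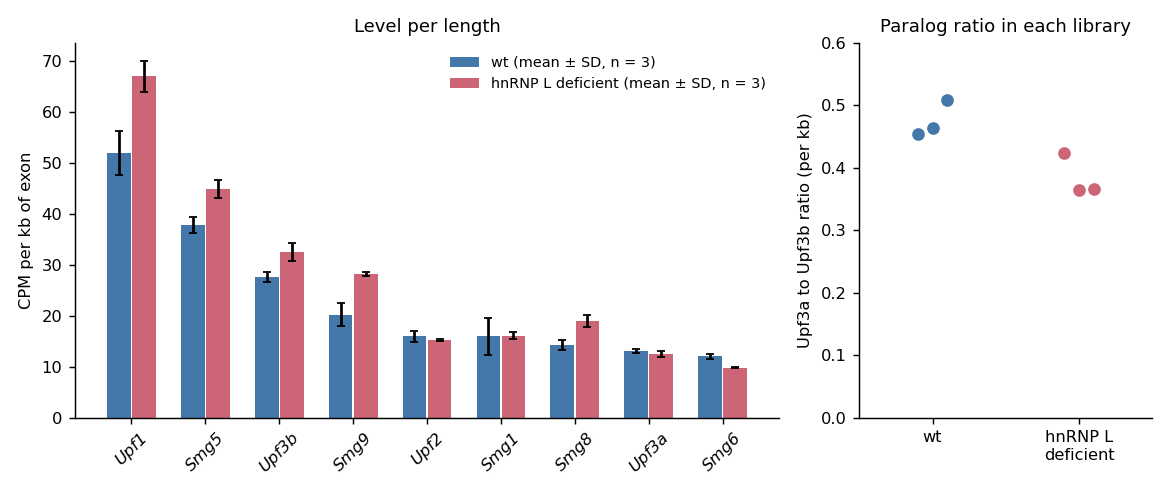
Left, level of each NMD factor in CPM per kilobase of exon in coding transcripts, as mean with SD over 3 wt (blue) and 3 hnRNP L deficient (red) libraries, in the wt order from *Upf1* at 51.9 to *Smg6* at 12.0. Right, *Upf3a* to *Upf3b* ratio per kilobase in each library, 0.454 to 0.508 in wt and 0.364 to 0.424 in hnRNP L deficient libraries.

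The pathway around the members was described with 53 further genes for other NMD factors, the exon junction complex, translation termination and cap binding, and decapping and decay. Of the 52 tested, 7 rose, 2 fell and 43 did not pass the test, so that 17.3% were called by edgeR beside 19.2% of all genes. This share moved with the tool. It was 48.1% beside 36.7% of all genes with limma-voom and 32.7% beside 19.9% with DESeq2. The median log2 fold change of the partners was 0.19. The difference between the members and their partners was not tested.

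Among the 15 other NMD factors 4 rose and 1 fell, so that 33.3% were called where 19.2% of all genes tested were called. *Ruvbl2* (log2 fold change 0.57, edgeR adjusted p = 0.017), *Eif4g1* (0.48, adjusted p = 0.048), *Sec13* (0.47, adjusted p = 0.014) and *Ruvbl1* (0.36, adjusted p = 0.045) rose. RUVBL1 and RUVBL2 are ATPases that associate with SMG1 and other kinases of its family, and eIF4G1 is the scaffold of the cap-binding complex in translation. *Mov10*, which encodes a helicase that binds UPF1, fell from 33.8, 36.2 and 38.7 CPM in wt to 27.8, 22.3 and 19.8 CPM in hnRNP L deficient libraries (log2 fold change -0.64, edgeR adjusted p = 0.026).

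The exon junction complex is the protein assembly left on mRNA upstream of spliced junctions and read by the UPF3 proteins. Of its 10 genes beside the UPF3 paralogs 1 rose and none fell, where 9.32% of all genes tested rose and 9.85% fell. *Rbm8a* rose (log2 fold change 0.28, edgeR adjusted p = 0.04). The values of its partners were 0.30 for *Eif4a3* (adjusted p = 0.054), 0.28 for *Rnps1* (adjusted p = 0.064), 0.21 for *Casc3* (adjusted p = 0.093), 0.19 for *Magohb* (adjusted p = 0.33) and 0.04 for *Magoh* (adjusted p = 0.83), all from the edgeR fit. None of these 5 passed the test. Of the 7 genes for translation termination and cap binding, 0 were called by edgeR, where 19.2% of all genes were. An edgeR unadjusted p under 0.05 was found for 3 of them. The share of all genes with such an unadjusted p was not counted. DESeq2 and limma-voom called 3 and 5 of the 7, where they called 19.9% and 36.7% of all genes.

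In decapping and decay, 2 of 20 genes rose and 1 fell. *Edc4*, the decapping scaffold (log2 fold change 0.46, edgeR adjusted p = 0.026), and *Dcp1a*, the decapping activator (0.28, edgeR adjusted p = 0.047), rose, and *Pan3*, a subunit of a deadenylase, fell (-0.48, edgeR adjusted p = 0.036). The decapping enzyme gene *Dcp2* was at -0.03 (adjusted p = 0.83) and the exonuclease gene *Xrn1* at 0.07 (adjusted p = 0.86). Of 8 genes for kinases related to SMG1 and for their chaperone, 0 were called by edgeR, DESeq2 or limma-voom, and 0 had an unadjusted p under 0.05 by edgeR or DESeq2 and 1 by limma-voom. Their log2 fold changes had a median of 0.06, near the 0.01 of *Smg1*.

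**Figure D3:**
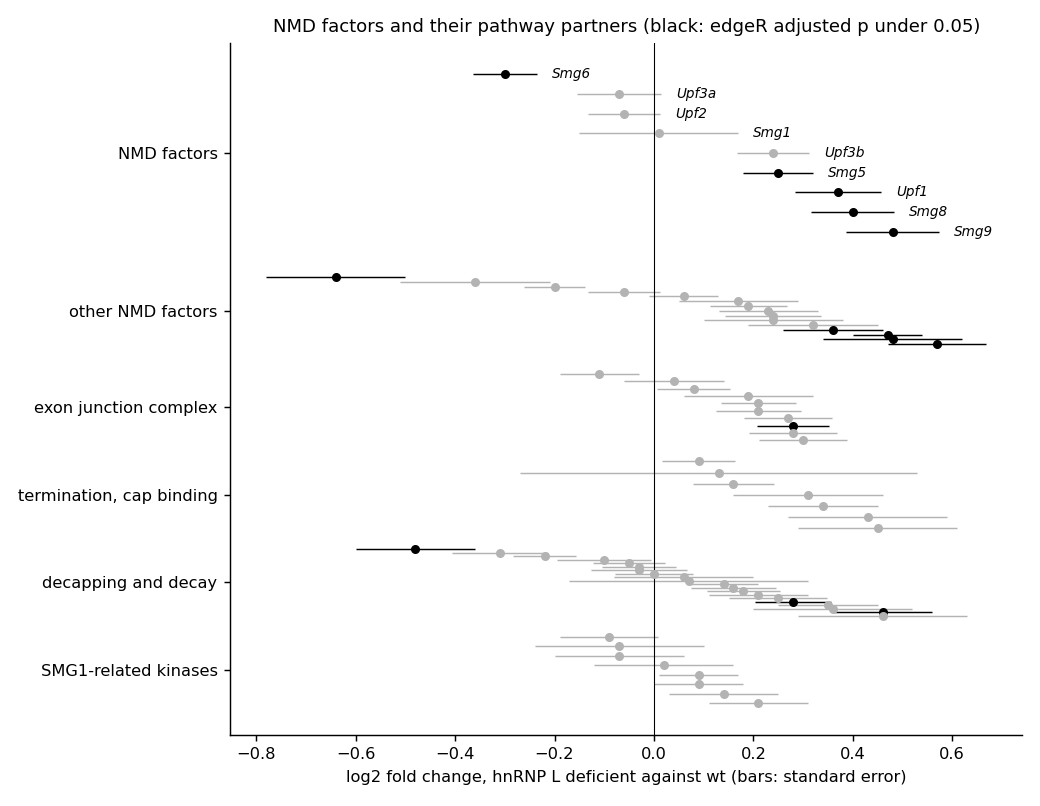
Log2 fold change of hnRNP L deficient against wt (x axis) with its standard error for the 9 NMD factors and the partner groups (rows), in black where the edgeR adjusted p was under 0.05. Among the members the points run from *Smg6* at -0.30 to *Smg9* at 0.48, and most partner genes are grey.

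A further list held mRNAs reported elsewhere as NMD targets, and it bears on the members because *Smg5* and *Upf3a* are on it. Of the 21 other genes tested, 5 rose, 2 fell and 14 did not pass the test, so that 33.3% were called by edgeR beside 19.2% of all genes. This share includes *Hnrnpl*, whose fall was set by the design. *Cdkn1a*, a p53 target (log2 fold change 4.26), and *Trib3*, a stress-response gene (1.93), rose most, followed by the *Hnrnpl* paralog *Hnrnpll* (0.64). The 2 that fell were the deleted *Hnrnpl* itself (-1.01) and *Ptbp2* (-0.58). *Atf4* (0.49) and *Snhg15* (0.42) also rose. *Gas5* (0.09, edgeR adjusted p = 0.55), *Srsf3* (-0.03, edgeR adjusted p = 0.88) and *Srsf7* (0.00, edgeR adjusted p = 0.99) did not pass the test. The 14 that did not pass ranged from -0.62 for *Map3k14* (edgeR adjusted p = 0.17) to 1.41 for *Chac1* (edgeR adjusted p = 0.08). The genes named here that did not pass were chosen after their values were seen.

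The transcripts of the members differ in the features on which NMD can act. In the longest coding transcript of each gene, the 3′ UTR measured 4233 bases in *Smg1*, 1498 in *Smg6*, 1261 in *Upf2*, 1230 in *Smg5*, 958 in *Upf1*, 834 in *Upf3b*, 719 in *Upf3a*, 400 in *Smg9* and 221 in *Smg8*, where the median over 12487 genes was 916. The 3′ UTR of *Smg1* was longer than that of 94.8% of genes. The members with the largest rises, *Smg9* and *Smg8*, had the shortest 3′ UTRs of the 9, below those of most genes. The other members that rose, *Upf1* and *Smg5*, had 3′ UTRs above the median. A link between 3′ UTR length and change was not tested. The 5′ UTR contained an ATG in *Upf2*, *Smg1*, *Smg5* and *Smg9*, 1 each, and 49.2% of genes had at least 1. The annotation lists 1 transcript of the NMD class for each of *Smg1*, *Smg5* and *Smg6* and none for the other members.

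CA repeats are the preferred binding sequence of hnRNP L. The letters ACACACAC on the mRNA strand occurred in 2 of the 9 transcripts, once each, in the 3′ UTR. The sites are shown with 4 flanking bases in lower case.
Smg1 site (chr7:118134964-118134971, GRCm38, minus strand): atagACACACACtaca
Smg6 site (chr11:75163518-75163525, GRCm38, plus strand): ttcaACACACACgcac
Of genes with transcripts of 0.8 to 1.25 times the length, 49.5% held such a match for *Smg1* and 23.8% for *Smg6*. Of the members with a match, *Smg6* fell and *Smg1* did not pass the test, and the 4 members that rose had none. A match to these letters is a description and not a binding site.

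Whether the members were spliced differently was read from counts on exon bins, the parts into which the exons of a gene are divided, in all wt libraries and in replicates 2 and 3 of the hnRNP L deficient group. The 9 genes had 230 bins, and 219 had a mean of at least 10 reads. These bins come from the annotation used for counting, which differs from GENCODE M21, the source of the transcripts above. It had 22 bins for *Smg5* against 41, 9 for *Upf3a* against 13, 73 for *Smg1* against 81 and 24 for *Upf1* against 26. For the other members the numbers were equal. Whether the bins cover the transcripts of the NMD class was not tested. The change in usage of a bin is its log2 fold change relative to the rest of its gene. Of the 219 bins, 0 had an unadjusted p under 0.05 in edgeR's exon test, where 1.03% of all bins tested had one. None had an adjusted p under 0.05, where 0.0288% of all bins did. A share of 1.03% at a threshold of 0.05 is low, so this test calls few bins. The cause of the low share was not tested. Because the test calls few bins, a count of 0 does not show that splicing was unchanged. At an unadjusted p under 0.01 with a change of over 2-fold, a share of 0.249% of all bins passed and no member bin. Of the member bins 202, or 92.2%, lay within 0.3 of zero on the log2 scale. The share of all bins within this band was not counted.

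The smallest unadjusted p among the member bins, 0.160 by edgeR, belonged to bin 26 of *Upf2*, the only one whose change reached 2-fold in size (log2 1.00). It held 0, 19 and 22 reads in wt replicates 1 to 3 and 37 and 19 in hnRNP L deficient replicates 2 and 3. The groups overlapped, and wt replicate 1 had no read on this bin. Bin 14 of *Upf3b* took 4.05%, 3.79% and 5.32% of the reads on bins of the gene in wt and 5.34% and 6.14% in hnRNP L deficient libraries (log2 0.40, edgeR unadjusted p = 0.169). Bin 17 of *Smg6* took 4.11%, 3.93% and 3.81% in wt and 5.83% and 4.58% in hnRNP L deficient libraries (log2 0.40, edgeR unadjusted p = 0.210), with no overlap. The bins of *Upf1*, deepest of the 9 with a median of 1204 reads, moved by -0.12 to 0.12 only, while those of *Smg1*, the gene with 69 bins tested, ranged from -0.62 to 0.75.

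Among the remaining members the bin with the smallest unadjusted p by edgeR, which was 0.256 or higher, had a log2 change in usage of 0.18 in *Upf3a* (bin 5), -0.62 in *Smg1* (bin 59), -0.22 in *Smg5* (bin 2), 0.17 in *Smg8* (bin 6), 0.46 in *Smg9* (bin 1) and 0.12 in *Upf1* (bin 4). The limma exon test put 3 member bins under 0.05 before adjustment, namely bins 5 and 17 of *Smg6* and bin 26 of *Upf2*, which is 1.37% of the member bins against 2.67% of all bins in that test. A DEXSeq-type model in DESeq2 put 2 there, bin 17 of *Smg6* and bin 10 of *Smg1*, or 0.913% against 4.30% of all bins. Without wt replicate 2 the edgeR exon test put 3 there, bin 26 of *Upf2*, bin 59 of *Smg1* and bin 2 of *Smg5*, or 1.37% against 2.54%. After adjustment 0 member bins passed in any of these.

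**Figure D4:**
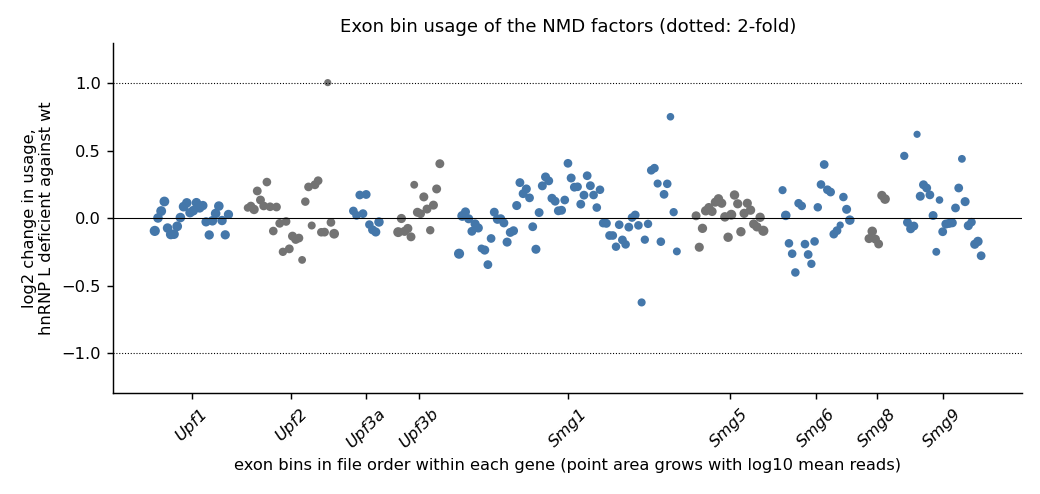
Log2 change in usage (y axis) of the 219 exon bins tested in the 9 NMD factors, in file order within each gene (x axis), with larger points for more reads and dotted lines at 2-fold. Most points lie within 0.3 of zero, and the one at 1.00 is bin 26 of *Upf2*, with a mean of 19.4 reads.

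The genes whose pattern over the 6 libraries was most like that of a member were sought for the members with the highest and the lowest log2 fold change. Likeness was measured as the root mean square difference of log2 CPM after each gene was centred on its mean. For *Smg9* they were *Hmgxb3* (0.0334), *Zscan22* (0.0373) and *Prkab1* (0.0392), with log2 fold changes of 0.49, 0.47 and 0.48. For *Smg6* they were *Zfp236* (0.0235), *Fam172a* (0.0270) and *Dlgap5* (0.0284), at -0.29, -0.28 and -0.30. None of the 6 belongs to the NMD lists.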

How the data were processed

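RNA-seq gene counts of 6 libraries, 3 wt and 3 hnRNP L deficient embryos at E14.5, were used. Per the study's methods the authors aligned the reads with Tophat 2.0.10 to GRCm38, used HTSeq for counts per Ensembl gene and the DEXSeq script for counts per exon bin, and deposited raw counts. The Ensembl release and counting options are not given in the sources used here. Counts not assigned to a gene, 46.7% to 53.3% of the total per library, were left out. Most of these were alignments that were not unique, 39.8% to 44.7% of the total, while 5.87% to 8.37% lay on no annotated feature. For replicate 1 of the hnRNP L deficient group, exon bins were not analysed here. p-values measure the spread between these embryos, and 3 reads correspond to at most 0.054 CPM.

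From the counts, genes were kept by edgeR's default expression filter (edgeR 4.0.16, R 4.3.3), normalized by TMM and tested with its robust quasi-likelihood test with Benjamini-Hochberg adjustment over 14396 genes. The SE was obtained from the fold change and the F statistic. The biological coefficient of variation was 0.269. CPM are relative to the TMM-normalized library size. diffSpliceDGE was applied to exon bins averaging 10 or more reads. Alternatives were median-of-ratios factors, total counts, no filter, a mean of at least 1 CPM, no robust estimation, limma-voom with sample weights (limma 3.58.1), DESeq2 1.42.0 and leaving out each library, and for bins limma diffSplice, a mean of at least 30 reads and a DEXSeq-type model. The gene test and the exon bin test were tried on simulated counts, with changes larger than those of any member or member bin. They were not tried at the sizes seen here. The levels and the ratio with all annotated exons were added after seeing the data.

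Positions and transcripts are from GENCODE M21 on GRCm38, and promoters from RefSeq on GRCm38.p6. All 9 members matched an Ensembl identifier and a RefSeq promoter. The members and all lists were chosen with earlier results of these data known. Named are all members, from each other list the 3 largest rises and falls among called genes, and *Eif4a3*, *Rbm8a*, *Magoh*, *Magohb*, *Casc3*, *Rnps1*, *Dcp2* and *Xrn1* whatever their values (a further partner named by the rule is not reported here), and per member the bin with the smallest p. *Ruvbl1*, *Atf4*, *Snhg15*, *Gas5*, *Srsf3*, *Srsf7*, *Map3k14* and *Chac1* are named in addition. The symbols *Pat1b* and *Snhg1* of the lists matched no gene in the counts.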

Additional observations from a re-analysis of the deposited data

How the results depend on the processing

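*Upf1*, *Smg8* and *Smg9* were called in 7 of 7 alternative settings with all libraries, *Smg6* in 6 and *Smg5* in 4, and each kept its direction. Without an expression filter 0 members fell, since *Smg6* missed the threshold. When 1 library at a time was left out, 0 to 5 members rose and 0 to 1 fell, the other NMD genes numbered 0 to 23 that rose and 0 to 5 that fell, and the reported targets 0 to 8 and 0 to 3. The member calls were lost without wt replicate 3 and without hnRNP L deficient replicate 1, 2 or 3, where 0.0341% to 0.115% of all genes were called, and were kept without wt replicate 1 or 2, where 32.4% and 24.1% were called. The cause was not tested. The *Upf3a* to *Upf3b* difference ranged from -0.38 to -0.26, and the member bins past the threshold stayed at 0, in those fits. Of the other NMD genes, 7 rose and 2 fell in the reported fit, 3 rose and 5 fell with total counts, 5 fell with a mean of at least 1 CPM, 20 rose and 5 fell with limma-voom and 15 rose with DESeq2, where 36.7% and 19.9% of all genes were called. Of the reported targets, 8 rose with limma-voom and 8 with DESeq2, against 5. The cause was not tested. No paired analysis was possible because the labels give embryo numbers in place of replicate numbers. Their first part, whose meaning is not stated, is the same in wt replicate 1 and hnRNP L deficient replicate 1 and in no other pair across the groups.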
